A study of Mus musculus with 4 samples.

Results

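RNA of mouse cells that lack Yap by their genotype label was compared between a stimulated and an unstimulated state. The 2 Yap KO libraries were picked from the 4 bulk RNA-seq libraries of the study by title and genotype label alone, and no measured value was used to choose them. The other 2 libraries are WT cells in the same pair of states, and they serve here only as a second set of ratios beside the Yap KO ones. All cells came from spleen and lymph node, and RNA was taken from cell culture.

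The labels leave several things open. For the stimulus, the cell type, the animals and their age, the exons removed from Yap and the driver of the deletion, the sources used here give nothing. Both stimulated titles carry the number 24 without a unit, and the unstimulated titles carry none, so stimulation and time in culture cannot be told apart. Each genotype and state has 1 library, and every title has the replicate number 1. No comparison below has a replicate check, and no p-value was computed. Nothing in the labels shows whether the libraries came from separate animals or cultures.

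YAP is a transcriptional coactivator held in the cytoplasm by the kinases of the Hippo pathway, and it acts on DNA through TEAD factors. A resting T cell that is stimulated through its antigen receptor leaves quiescence: it produces cytokines and their receptors, enlarges its ribosome and enzyme pools, replicates its DNA and divides. In doing so it drops the transcription factors and homing receptors that keep naive T cells circulating through lymphoid tissue.

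The unstimulated Yap KO library held 25419974 reads in genes and the stimulated library 19935523. These were 37.6% and 39.7% of all entries in their tables, and the WT libraries held 22088392 and 20976343 reads in genes. Levels are given as CPM, counts scaled to 1 common library total, after TMM scaling, in which 1 factor per library corrects that total. A ratio is stimulated over unstimulated, on the log2 scale and with a prior count of 2 unless a fold is stated. The range in parentheses after it is the exact 95% interval (Clopper-Pearson) of the ratio without that prior count. At few reads the prior count pulls the ratio toward 0, so it can lie near the inner limit of its range. These intervals cover counting error only, since each state has 1 library. A read need not stand for a molecule of its own, so the error in counting molecules may be wider. A gene was called higher or lower, or is said to have risen or fallen, where it differed by at least 2-fold and the interval excluded no difference. A gene with 0 reads was set at a floor of 3 reads per library, which was 0.115 CPM unstimulated and 0.155 CPM stimulated. Its fold against that floor is given as a bound, with the words "at least". The exact 95% Poisson limit for 0 reads was higher, at 0.142 CPM unstimulated and 0.191 CPM stimulated, so the true fold could lie below that bound.

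Some reads cannot be placed on 1 gene. The sources used here do not give the strand setting of the counting, so reads of a gene and of one opposite to it may be mixed. Of the genes named below, Aldh1l2, Ccnd1, Cd247, Csf1r, Fars2, Foxp3, Gabarapl1, Hmgcs1, Hspa1a, Il16, Lef1, Mpzl2, Penk, Psmb7, Psmb8, Rbl2 and Tgm2, and those marked where they appear, have over 10% of their exon bases opposite another gene. In Aars, Actb, Cd79a, Ctsd, Cycs, Eef1a1, Eno1, Foxp3, Gapdh, Gzmc, H2-D1, H2-K1, Hsp90ab1, Hspe1, Idi1, Ifi208, Ifi213, Ifit1bl1, Il2, Itgax, Ldha, Ly6c2, Lyz2, Npm1, Pkm, Rrm2, Rtp4 and Tpi1, and those marked below, over 10% of 31-mers occur in another gene. Values of both sets are uncertain to that extent. The 31-mers were counted only for genes picked by the naming rule given at the end. Other genes named below, such as Lars2, Mif, Ifng, Lck and Trac, were not checked for shared sequence.

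Stimulated Yap KO cells differed from unstimulated ones in many genes in both directions. Of 50686 gene identifiers, 15196 had at least 20 reads over both Yap KO libraries and were kept. Of these, 3379 were called higher (22.2%) and 3903 lower (25.7%), together 47.9%. This balance depends on the scaling, since total reads gave 3154 higher and 4150 lower. At 4-fold or more, 1364 were higher (8.98%) and 1852 lower (12.2%), and at 10-fold or more 583 were higher and 674 lower. The median log2 ratio over all genes kept was -0.06, with a 10th percentile of -2.25 and a 90th of 1.87. Only 15.6% of genes lay within 1.2-fold of no difference. The interval reached a median of 1.16 log2 units to either side for genes with 20 to 99 reads and 0.11 for the 7394 genes with 1000 or more, so the depth resolved 2-fold differences for the latter and not for many of the former. The plot of ratios against levels shows these calls.

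**Figure D1:**
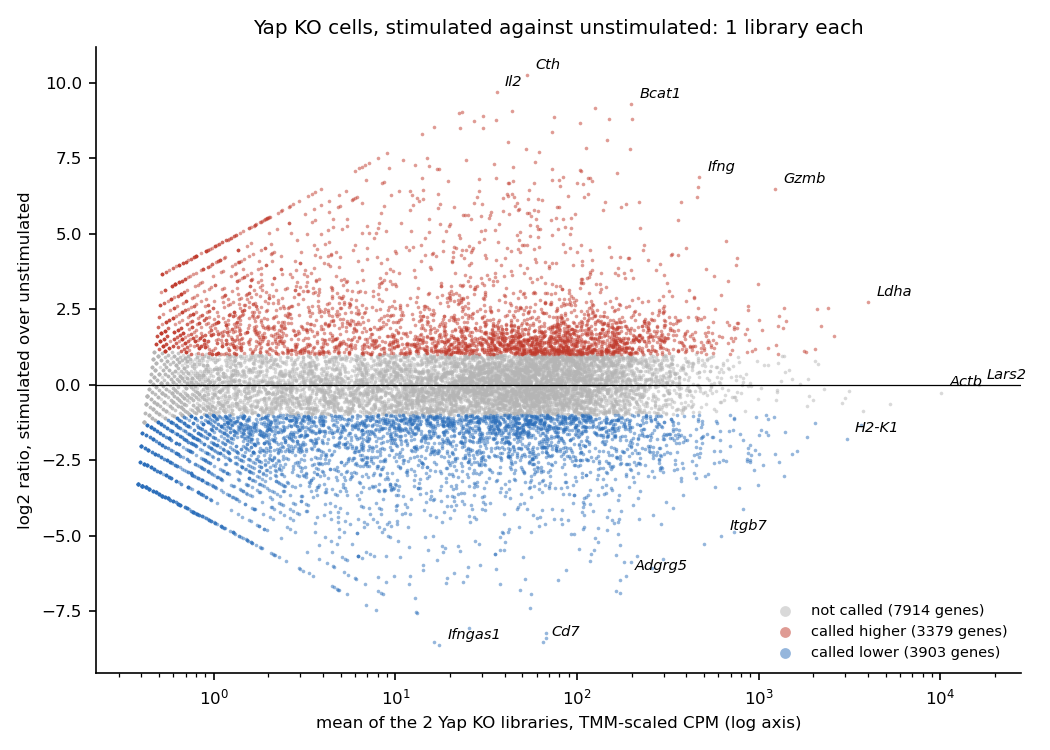
Log2 ratio of stimulated over unstimulated Yap KO cells against the mean level of both libraries (TMM-scaled CPM, log axis), 1 point per gene kept, with red for the 3379 genes called higher and blue for the 3903 called lower. The diagonal rows of points at low levels are genes with 0 or a few reads in 1 library, and Lars2 and Actb, at the right edge, lie near 0.

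Before the responses, the labels were checked against marker genes. Cd8a and Cd8b1, which encode the CD8 coreceptor of cytotoxic T cells, went from 20341 to 4858 and from 39286 to 5198 reads. The CD8 T cell list held 10 markers, of which 7 were lower and 1, Gzmb, higher, with a median of -1.54 and sums of 4175 CPM before and 3721 after. Cd4, the coreceptor of helper T cells, had 3 reads unstimulated and 0 stimulated. Of the other CD4 T cell markers, 4 of the 5 that passed rose (Ctla4, Tnfrsf4, Icos and Zbtb7b, of which the first 3 are also known from activated CD8 T cells) and none fell, with a list median of 1.196 (3.98 with at least 200 reads) and sums of 52.2 CPM before and 571 after. The T cell receptor chain gene Trac had 13591 and 4930 reads. Both libraries thus carry CD8 T cell genes, although the labels name no cell type. Yap1 itself had 0 reads unstimulated and 2 stimulated, both under the floor of 3 reads, and WT cells were at most at that floor, so the genotype label could not be checked from it.

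The genes with the highest ratios, ordered by the interval limit nearest to 0, were close to silent before stimulation. Cth, which makes cysteine from cystathionine, had 0 reads unstimulated and 2058 stimulated (107 CPM), at least 923-fold higher. Il2, the main growth factor of activated T cells, went from 0 to 1394 reads (72.2 CPM), at least 625-fold higher. Crabp2, a retinoic acid carrier, Il3, a growth factor of myeloid cells, and Il23a, a subunit of interleukin 23, also started at 0 reads and ended at 897, 864 and 631. They were at least 402-fold, 388-fold and 283-fold higher. None of these 5 genes had a single read before stimulation.

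Another 10 genes of the leading 15 had a few unstimulated reads. Bcat1, which transaminates branched-chain amino acids, went from 14 to 7648 reads, a log2 ratio of 9.30 (8.77 to 10.39). Serpine2, a protease inhibitor, went from 9 to 4835 reads, 9.17 (8.57 to 10.63), and Zbtb32, a zinc finger repressor of lymphocytes, from 21 to 7745, 8.81 (8.34 to 9.65). The chemokine gene Ccl9 went from 6 to 2885 reads, 8.87 (8.21 to 10.79), and the cytokine gene Il17f from 2 to 1699, 9.06 (8.30 to 13.21). Cdkn1a and Perp, both known targets of p53, went from 11 to 3996 and from 2 to 1384 reads. Vegfa, a growth factor of blood vessels, went from 1 to 1171 reads, 8.90 (8.14 to 15.93). Idi2, an isomerase of the isoprenoid pathway, went from 1 to 1039 reads, but 31.8% of its 31-mers occur in another gene, so its reads are uncertain. The last of them, Asns, makes asparagine and is described with the amino acid genes.

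Il2 is the highest of these genes with a promoter in the RefSeq table, and the 250 bases before its start are shown because they hold the core letters of the NFAT site, GGAAAA, in 2 places (GRCm38.p6, chr3:37125955-37126204, minus strand). The capitals mark those letters on either strand, at 137 and 48 bases before the start. A match of such letters is a description and no evidence of binding.
Il2: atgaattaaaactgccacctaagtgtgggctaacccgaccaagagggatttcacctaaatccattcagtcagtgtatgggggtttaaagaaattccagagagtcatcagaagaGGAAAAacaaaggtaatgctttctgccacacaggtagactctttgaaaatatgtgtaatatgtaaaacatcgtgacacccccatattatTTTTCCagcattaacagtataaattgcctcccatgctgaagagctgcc
GGAAAA is frequent: 20.99% of the 9949 promoters of genes kept held it on either strand in 300 bases, against 23.0% of those of genes 4-fold higher and 27.3% of 22 promoters of cytokine genes. The cytokine list did not stand out, since 47.6% of 21 promoters of interferon-stimulated genes held it. The shares were 29.2% for ribosome biogenesis and 28.1% for G1/S genes, and the other lists searched were lower, down to 9.09% for amino acid genes. Over all 27025 RefSeq promoters it was 23.6%.

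The 15 genes with the lowest ratios had 356 to 9548 reads before stimulation and at most 85 after it. Cd7, a surface protein of T and NK cells with 10.8% of its exon bases opposite another gene, went from 3349 reads (129 CPM) to 5, a log2 ratio of -8.54 (-10.58 to -7.74). Cd163l1, a scavenger receptor known from gamma-delta T cells, went from 3484 reads to 7, -8.22 (-9.85 to -7.49). Fcgrt, the neonatal Fc receptor, went from 2862 to 11 reads, -7.39 (-8.60 to -6.75). Adgrg5, an adhesion receptor, went from 9548 to 85 reads, -6.36 (-6.71 to -6.08), and Pou6f1, a POU factor, from 2488 to 15, -6.79 (-7.79 to -6.22). Ampd1, an AMP deaminase, and Lypd6b went from 681 and 670 reads to 1 each. Ggt1, which breaks down glutathione, went from 1944 to 13 reads. Jchain, the joining chain of antibodies and a plasma cell marker, went from 659 to 2.

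Of these genes, 3 were at 0 reads after stimulation. Ifngas1, a noncoding RNA beside Ifng, had 901 reads before, at least 223-fold lower. Drc1, a ciliary protein gene, had 404, at least 100-fold lower, and Gpr15, a homing receptor for the colon with 12.5% of its exon bases opposite another gene, had 356, at least 88.2-fold lower. Prrt1, Myo3b and Klrg1, the last an inhibitory receptor of effector T and NK cells, also ended at 0, from 252, 249 and 234 reads. Over all genes kept, 102 were at 0 reads unstimulated and 214 at 0 reads stimulated. The plot of leading genes gives the levels of the 15 highest and the 15 lowest.

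**Figure D2:**
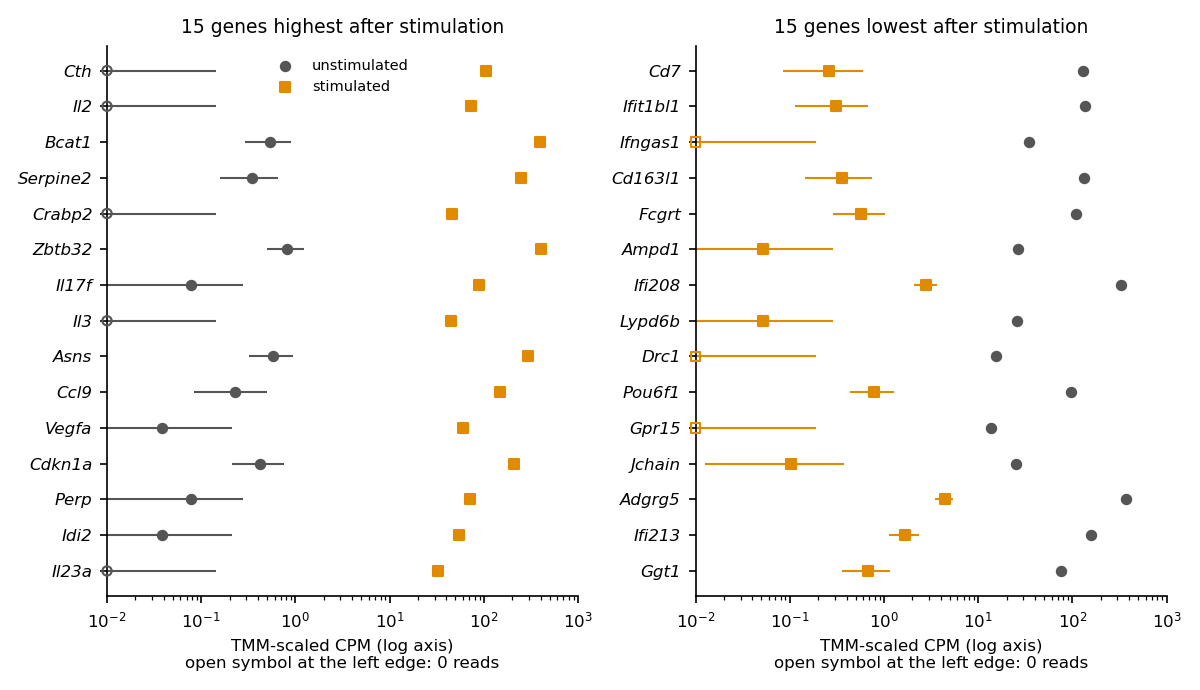
Levels (TMM-scaled CPM, log axis) of the 15 genes with the highest and the 15 with the lowest ratios in the unstimulated (grey circles) and stimulated (orange squares) Yap KO libraries, with exact 95% Poisson intervals as lines. Open symbols at the left edge stand for 0 reads, and no interval of 1 library reaches that of the other for any of the 30 genes.

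Ordered by CPM gained instead of by ratio, the leading genes were others. Ldha, lactate dehydrogenase, went from 27205 to 134542 reads, 1047 to 6969 CPM. Gapdh gained 3377 CPM, Ncl, a nucleolar protein, 2926 CPM and Hsp90ab1, a chaperone, 2613 CPM. Eno1 and Pkm of glycolysis, the nucleolar gene Npm1, the tubulin gene Tuba1b and the mitochondrial chaperone gene Hspd1 were also among the 10 largest gains. The remaining gene of the 10 was the granzyme gene Gzmb, which gained 2406 CPM. Of these genes, Tuba1b shares 68.9% of its 31-mers with other genes and Hspd1 50.1%, so their reads are uncertain.

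The 10 largest losses were led by antigen presentation genes. H2-K1, a class I MHC heavy chain, went from 122760 to 26480 reads, 4725 to 1372 CPM, a log2 ratio of -1.78 (-1.80 to -1.77). H2-D1, another heavy chain, fell by 1.33 on the log2 scale, and B2m, the light chain they share, fell by 1.74. The cytoskeletal genes Coro1a and Flna had ratios of -2.20 and -2.28, and the kinase gene Jak1 of -2.56. Eef1a1, Actb and the noncoding Gm26917 were among the 10 with ratios of -0.87, -0.27 and -0.63, so they were not called.

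Per exon base, the order of genes within a library also changed. Actb stood first in both libraries, at levels of 12153 unstimulated and 9720 stimulated, as reads per exon base with a fixed total over genes. B2m was second before stimulation at 9717 and stood at 2797 after it. Ldha was second after stimulation, at 5968 against 933 before. Gzmb ranked 5 after stimulation, at 4803 against 55.6 before, and Mif, a cytokine gene, ranked 10, at 3730 against 690. After stimulation 987 genes held the upper 50 percent of reads, against 958 before, while 12736 genes reached 1 CPM, against 13122 before.

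The antigen receptor and its proximal kinases were lower. Of 25 genes, all of which passed the read minimum, 16 fell and none rose, beside 25.7% lower and 22.2% higher of all genes kept, and the median log2 ratio was -1.32 beside -0.06 over all genes. The same background applies to each list below. Rasgrp1, which activates RAS after receptor engagement, went from 10584 to 1229 reads, -2.68 (-2.76 to -2.59). Cd3g, a CD3 chain, went from 15297 to 2017 reads. The kinase gene Lck went from 39643 to 10481 reads, -1.49. The coreceptor genes fell unequally: Cd8b1 by 2.49 on the log2 scale (interval -2.53 to -2.45) and Cd8a by 1.64 (-1.68 to -1.59). Zap70 (-0.63) and Cd247 (-0.37) were not called, and Cd28 and Cd5 had ratios of 0.35 and 0.55.

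Costimulatory and inhibitory receptors of activated T cells were mostly higher, with 14 of 25 genes called higher, 5 lower and a median of 1.502. Lag3, an inhibitory receptor, went from 9 to 1340 reads, 7.32 (6.72 to 8.78). Ctla4, another, went from 50 to 4501 reads, 6.86 (6.52 to 7.35). The costimulatory receptor genes Tnfrsf4 and Tnfrsf9 went from 55 to 4610 and from 288 to 14138 reads, and Il2ra, the high-affinity interleukin 2 receptor chain, from 316 to 17406. Tfrc, the iron uptake receptor of growing cells, reached 27795 reads from 2035. In the other direction, Cd38 had 256 and 43 reads and Cd86 381 and 82. The early activation gene Cd69 was not called, at 4505 and 4336 reads (0.37).

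Most of the cytokine and chemokine genes that passed the read minimum rose, and a few fell. Of 31 genes 25 passed the read minimum, of which 17 rose, each by at least 4-fold, and 3 fell, with a median of 4.12. A gene of this list that passed only through its stimulated reads had to be higher, so the count describes these libraries and supports nothing further. Ifng, the type 1 effector cytokine, went from 203 to 17983 reads, 6.88 (6.70 to 7.10). Il17a, a type 17 cytokine, went from 0 to 310 reads, at least 139-fold higher. Ccl3 and Ccl4, inflammatory chemokines, reached 8363 and 8929 reads from 168 and 689. The 3 genes that fell were Ltb (14475 to 441 reads), Ccl5 (7765 to 254) and Il16 (11801 to 1874). Tnf was not called, at 648 and 769 reads (0.67). Il4 and Il13, cytokines of type 2 helper cells, had 0 reads in both libraries.

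Cytokine receptors moved the other way, with 18 of 28 genes lower, 3 higher and a median of -1.36. Il6ra went from 5461 to 153 reads, -4.71 (-4.97 to -4.50). Il7r, the survival receptor of naive T cells, went from 13010 to 480 reads, -4.33 (-4.47 to -4.20). Il2rb and Il2rg, the signalling chains that pair with Il2ra, fell by 1.28 and 1.63 on the log2 scale. Il12rb2, which has 40.0% of its exon bases opposite another gene, rose from 496 to 3781 reads, 3.35. Il1rl1, the interleukin 33 receptor, went from 2 to 78 reads, 4.64 (3.81 to 8.78).

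Cytotoxic granule genes divided by member. Of 17 genes 13 passed, 5 rose and 5 fell, and the median was 0.12. Gzmb, granzyme B, went from 703 to 46981 reads, 27.1 to 2433 CPM, 6.49 (6.38 to 6.60). Serpinb9, an inhibitor of granzyme B, went from 1241 to 24721 reads, 4.74 (4.66 to 4.83). Of the other granzyme genes with enough reads, Gzmm fell from 953 to 15, -5.41 (-6.40 to -4.83), Gzma from 809 to 17 and Gzmk from 217 to 7, while Gzmc rose from 1 to 52. Ctsw, a cathepsin of cytotoxic cells, went from 25215 to 476 reads, -5.29 (-5.43 to -5.17). Prf1, perforin, had 3722 and 2633 reads (-0.07).

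Transcription factors known from activated T cells were higher in 16 of 30 cases and lower in 4, with a median of 1.53. Atf3, a stress-induced factor, went from 13 to 2372 reads, 7.71 (7.16 to 8.85). Irf4, which scales with antigen receptor signal, went from 151 to 6649 reads, 5.87 (5.66 to 6.13). Batf3 went from 0 to 252 reads, at least 113-fold higher, and the orphan receptor gene Nr4a3 from 83 to 2279, 5.17 (4.89 to 5.54). Myc, the growth regulator, went from 3677 to 8511 reads, 1.64. Id2 fell from 3063 to 519 reads and Tox from 1248 to 256.

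Factors of naive and quiescent T cells were lower in 18 of 28 cases and higher in 1, with a median of -1.69. Klf2, which maintains quiescence and homing receptors, went from 10148 to 126 reads, 391 to 6.53 CPM, -5.88 (-6.17 to -5.65). Pdcd4, a translation repressor, went from 7431 to 495 reads and Ets1 from 46723 to 3481, -3.32 (-3.37 to -3.27). Tcf7 and Lef1, of Wnt signalling and T cell memory, went from 39651 to 5012 and from 10416 to 1816 reads. The 1 gene that rose was the repressor gene Gfi1, from 405 to 1660 reads.

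Receptors of migration and adhesion followed, with 17 of 26 lower, 6 higher and a median of -1.81. Cx3cr1, a chemokine receptor, went from 414 to 2 reads, -6.38 (-10.32 to -5.40). S1pr1, the receptor for leaving lymph nodes and a known target of KLF2, went from 15240 to 206 reads, -5.77 (-5.99 to -5.58). The integrin gene Itgb7 went from 31184 to 711 reads, -5.02 (-5.14 to -4.92). Ccr7, which draws cells into lymph nodes, went the other way, from 17539 to 30562 reads, 1.23. Ccr8 rose from 11 to 70 reads.

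Interferon-stimulated genes, the antiviral program that interferons switch on, were lower in 22 of 30 cases and higher in none, with a median of -1.98. Oas2, an RNA sensor, went from 1285 to 13 reads, -6.02 (-7.11 to -5.42). Irf7, a master factor of interferon production, went from 5177 to 87 reads, -5.44 (-5.79 to -5.16), and Rtp4 from 1914 to 30. Ifit3b went from 432 to 1 reads, -6.90 (-13.63 to -5.84), but shares 55.2% of its 31-mers with other genes. Ifit1bl1 (3497 to 6 reads), Ifi208 (8481 to 54) and Ifi213 (4060 to 32), relatives of such genes outside the list, were among the 15 lowest genes of all. Bst2 had the highest ratio of the list, 0.88, and was not called.

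The promoters of Ifit3b (chr19:34607707-34607956, plus strand) and Ifit1bl1 (chr19:34601969-34602218, minus strand), both 250 bases before the start on GRCm38.p6 from RefSeq, are shown for the response element of these genes, which is GAAA, any 2 bases and GAAA again, on either strand. It occurs at 188 and 154 bases before the start of Ifit3b and at 104 bases before that of Ifit1bl1, in capitals. The 2 short capital runs in Ifit1bl1 are GGGTG, the KLF motif CACCC on the opposite strand.
Ifit3b: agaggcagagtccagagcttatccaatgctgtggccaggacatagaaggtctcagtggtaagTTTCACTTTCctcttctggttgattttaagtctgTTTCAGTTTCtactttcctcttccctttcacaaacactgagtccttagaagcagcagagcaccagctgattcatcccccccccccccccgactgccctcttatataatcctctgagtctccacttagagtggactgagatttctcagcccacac
Ifit1bl1: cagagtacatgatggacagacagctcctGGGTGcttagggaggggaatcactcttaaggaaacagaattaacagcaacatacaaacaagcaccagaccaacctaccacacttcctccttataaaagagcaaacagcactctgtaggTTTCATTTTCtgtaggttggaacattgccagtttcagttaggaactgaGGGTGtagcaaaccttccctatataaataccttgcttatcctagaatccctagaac
This element stood in 14 of 21 promoters of the list (66.7%), in 5.84% of promoters of genes 4-fold lower, in 2.46% of those of genes 4-fold higher and in 3.23% of all promoters of genes kept.

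Immediate-early genes, which cells transcribe within minutes of a signal or of handling, were lower in 12 of 22 cases and higher in 3, with a median of -1.08. Fos went from 4648 to 229 reads, -3.90 (-4.11 to -3.72), Jun from 17422 to 1515 and the phosphatase gene Dusp1 from 6746 to 408. Fosl1, a FOS relative with 57.2% of its exon bases opposite another gene, rose from 9 to 303 reads. In WT cells the median of this list was -1.91.

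Genes of cell division had the highest median of the lists. Of 34 genes of mitosis and cytokinesis, all of which passed, 33 rose, each by at least 4-fold, and the median was 5.54. Their summed level went from 238 to 6179 CPM. Ccnb1, the mitotic cyclin, went from 43 to 7536 reads, 7.81 (7.45 to 8.35), with 27.7% of its 31-mers shared with other genes. Ube2c, a ubiquitin enzyme of mitotic exit with 22.8% of its exon bases opposite another gene, went from 23 to 4295 reads, 7.84 (7.39 to 8.63). Bub1, a checkpoint kinase, went from 24 to 2774 reads and Birc5, survivin, from 36 to 3957. Pttg1, securin, was the exception, at 1075 and 798 reads (-0.00).

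Genes of the G1/S transition and DNA replication were higher in 33 of 40 cases and lower in 2, with a median of 2.46. Mcm10 and Cdc6, which load and start the replication machinery, went from 41 to 3078 reads, 6.58 (6.21 to 7.14), and from 72 to 4368, 6.31 (6.02 to 6.71). The 2 genes that fell were Rbl2, a pocket protein of resting cells, from 5542 to 1224 reads, and Ccnd1, from 52 to 15. The D-type cyclin gene of lymphocytes Ccnd2 was not called, at 15012 and 18849 reads (0.76).

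The promoters of Cdc6 (chr11:98907901-98908150, plus strand) and Ube2c (chr2:164769679-164769928, plus strand) are shown for 2 cell cycle motifs, as the 250 bases before the start (RefSeq, GRCm38.p6). In Cdc6 the capitals mark the E2F motif TTTCCCGC on the opposite strand, 138 bases before the start. In Ube2c they mark TTTGAA, the core of the cell cycle homology region, on the opposite strand 29 bases before the start, and this promoter was chosen after its values were seen.
Cdc6: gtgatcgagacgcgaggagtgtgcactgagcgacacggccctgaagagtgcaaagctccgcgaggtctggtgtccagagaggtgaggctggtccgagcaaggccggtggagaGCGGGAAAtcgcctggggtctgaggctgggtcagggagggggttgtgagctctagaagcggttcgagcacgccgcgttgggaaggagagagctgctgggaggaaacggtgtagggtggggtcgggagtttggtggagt
Ube2c: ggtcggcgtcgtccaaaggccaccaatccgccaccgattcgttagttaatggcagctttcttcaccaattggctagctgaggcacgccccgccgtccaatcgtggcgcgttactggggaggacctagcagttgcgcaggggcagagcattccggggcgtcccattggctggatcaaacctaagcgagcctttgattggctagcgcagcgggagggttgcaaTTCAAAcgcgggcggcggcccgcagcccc
TTTGAA stood in 20 of 27 promoters of the mitosis list (74.1%) and in 12.3% of all promoters of genes kept, and in 18.8% of those 4-fold higher against 12.4% of those 4-fold lower. Over all 27025 RefSeq promoters, of genes kept or not, 18.1% held TTTGAA and 1.11% held TTTCCCGC. TTTCCCGC stood in 7 of 32 promoters of the G1/S list (21.9%), in 4.35% of those of genes 4-fold higher, in 1.05% of those of genes 4-fold lower and in 2.18% of all. A related E2F motif, TTTGGCGC, also stood in 7 of the 32.

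The enzymes that build nucleotides and one-carbon units were higher in 24 of 28 cases and lower in none, with a median of 2.15. Rrm2, the limiting subunit of ribonucleotide reductase, went from 252 to 17793 reads, 6.56 (6.39 to 6.76). Aldh1l2, a mitochondrial folate enzyme, went from 2 to 237 reads, 6.22 (5.45 to 10.37). Tk1 and Tyms, of thymidine supply, reached 910 and 6966 reads from 53 and 508.

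Amino acid transporters and enzymes, many of them targets of the stress factor ATF4, were mostly higher. Of 28 genes 27 passed, of which 22 rose and none fell, with a median of 2.95. Of the 28, 5 had 0 unstimulated reads. A gene that passed only through its stimulated reads had to be higher, so the count describes these libraries and supports nothing further. Asns went from 15 to 5742 reads, 0.577 to 297 CPM, 8.80 (8.29 to 9.85). Chac1, which degrades glutathione, went from 0 to 538 reads, at least 241-fold higher. Slc6a9, a glycine transporter with 30.2% of its exon bases opposite another gene, went from 5 to 936 reads, 7.43 (6.75 to 9.60), and Slc7a3, a transporter of basic amino acids, from 13 to 1696. Atf4 itself rose from 3648 to 8630 reads, 1.67. Ddit3, which encodes CHOP, was not called, at 606 and 797 reads (0.82).

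The 250 bases before the Asns start (chr6:7693210-7693459, minus strand, RefSeq, GRCm38.p6) are shown because they hold TGATGNAA, the core of the element that ATF4 binds with a C/EBP partner, 23 bases before the start.
Asns: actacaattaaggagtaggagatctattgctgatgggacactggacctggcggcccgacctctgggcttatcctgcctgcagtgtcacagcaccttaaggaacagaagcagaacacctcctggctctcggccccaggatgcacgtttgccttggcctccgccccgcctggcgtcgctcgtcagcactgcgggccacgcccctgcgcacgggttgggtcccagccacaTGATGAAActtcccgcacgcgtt
TGATGNAA stood in 7 of 22 promoters of this list (31.8%), in 4.46% of those of genes 4-fold higher, in 2.53% of those of genes 4-fold lower and in 2.35% of all genes kept. Over all 27025 RefSeq promoters, of genes kept or not, the share was 4.06%. The plot of motifs sets these shares side by side.

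**Figure D3:**
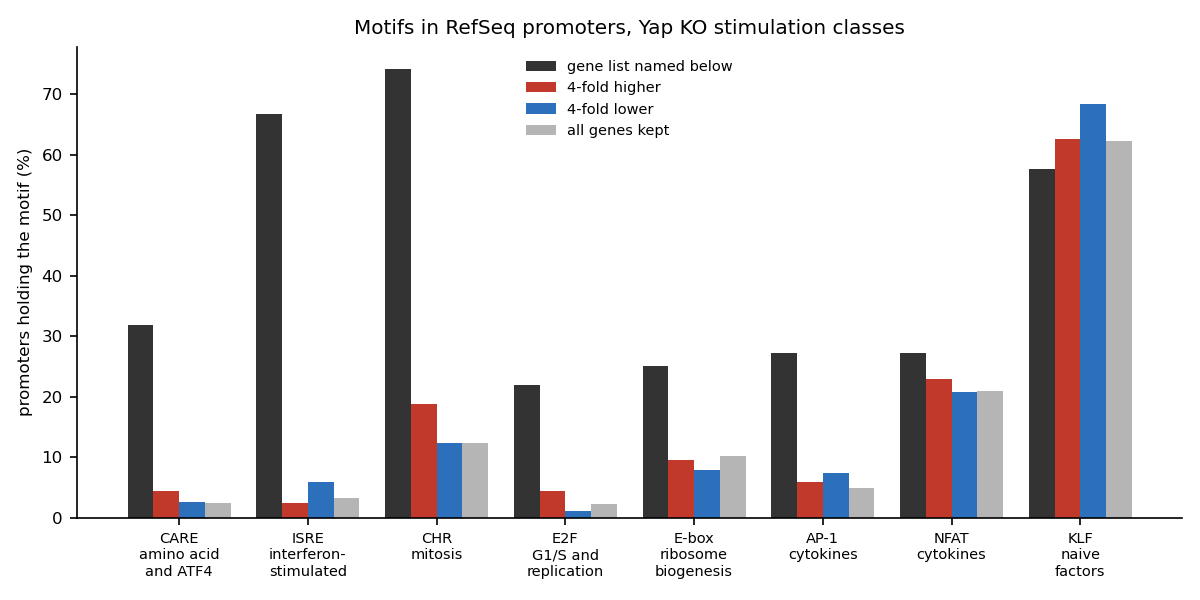
Share of RefSeq promoters (300 bases, either strand, in percent) that hold each named motif, in the gene list named under it (dark), in genes 4-fold higher (896 promoters, red) and 4-fold lower (1147, blue) and in all genes kept (9949, grey). The dark bar stands above the grey one for every motif shown but KLF, from 57.7% against 62.3% for KLF to 74.1% against 12.3% for CHR. Each motif is drawn with 1 list only. The interferon-stimulated list, not drawn for them, held the NFAT motif in 47.6% and the AP-1 motif in 28.6%, against 27.3% each for cytokines.

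Aminoacyl-tRNA synthetases, which charge tRNAs for translation, were higher in 14 of 22 cases and lower in none, with a median of 1.52. Cars went from 1199 to 5693 reads, 2.67 (2.59 to 2.77), and Aars from 2259 to 9817, 2.55 (2.48 to 2.61). The mitochondrial synthetase genes Lars2 and Fars2 were not called, at 423160 and 313035 reads (-0.01) and at 664 and 422 (-0.22). Lars2 stood at 16288 and 16213 CPM, so the summed level of the list, 19167 CPM unstimulated and 24477 stimulated, mostly describes that gene.

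Glycolysis genes were higher in 18 of 27 cases and lower in 1, with a median of 1.61. Slc16a3, which exports lactate, went from 37 to 2053 reads, 6.14 (5.75 to 6.73), and Hk2, the inducible hexokinase, from 65 to 2936, 5.88 (5.57 to 6.30). Tpi1 went from 2336 to 27317 reads, 3.97 (3.91 to 4.04). Pdk1, which turns pyruvate away from the mitochondrion, fell from 10372 to 2898 reads. The glucose transporter gene Slc2a3 was not called (-0.39), and Slc2a1 rose from 1794 to 4072 reads. The WT median of this list was 2.35.

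Cholesterol and fatty acid synthesis genes, controlled by SREBP factors, were higher in 22 of 30 cases and lower in none, with a median of 1.85. Fads2, a desaturase, went from 4 to 364 reads, 6.29 (5.57 to 8.82). Idi1 and Cyp51, of the sterol branch, went from 266 to 4358 reads, 4.45 (4.28 to 4.65), and from 604 to 5824, 3.69 (3.58 to 3.82). Srebf2, the factor gene itself, was not called, at 4883 and 4933 reads (0.44). Hmgcs1 went from 1189 to 3106 reads, 1.81 (1.72 to 1.91), and its promoter (chr13:119690101-119690350, plus strand, RefSeq, GRCm38.p6) is shown as the only one of 20 in this list with the sterol element TCACCCCAC, 137 bases before the start.
Hmgcs1: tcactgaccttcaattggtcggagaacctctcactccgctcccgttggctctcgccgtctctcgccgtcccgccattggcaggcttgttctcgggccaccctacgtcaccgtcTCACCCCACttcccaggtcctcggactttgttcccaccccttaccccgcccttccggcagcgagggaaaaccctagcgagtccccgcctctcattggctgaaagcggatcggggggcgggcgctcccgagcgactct
Over all promoters of genes kept, 0.482% held TCACCCCAC, against 0.558% of those 4-fold higher.

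Genes of the respiratory chain are encoded in the nucleus and in the mitochondrion. Of 28 nuclear-encoded genes 12 rose and none fell, with a median of 0.84, led by Cycs, cytochrome c, from 2508 to 9615 reads, 2.37. Of 13 genes encoded by the mitochondrion none rose and 1, mt-Atp8, fell on 26 and 7 reads, and the median was -0.05. The difference between these medians was not tested.

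Genes that make and fold proteins were higher. Ribosome biogenesis genes rose in 24 of 28 cases and fell in none, with a median of 1.40 and a narrow range, from 0.86 to 2.52. Ncl went from 16088 to 68441 reads, 2.52 (2.49 to 2.54), and Nop16 from 1008 to 4207. Chaperone and unfolded protein response genes rose in 18 of 29 cases and fell in 4, with a median of 1.32. Hspe1 and Hspd1, the mitochondrial chaperonin pair, went from 1427 to 10980 and from 4642 to 34991 reads. The heat shock genes Hspa1a and Hspa1b fell from 1397 to 27 and from 4121 to 123 reads, although they share 65.4% and 68.0% of their 31-mers with other genes.

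Protein breakdown showed 2 patterns. Proteasome genes rose in 19 of 27 cases and fell in 2, with a median of 1.32. Psma5 (2188 to 6039 reads, 58.7% of 31-mers shared) and Psmb7 (1426 to 3796) rose. The 2 genes that fell, Psmb10 (4779 to 913 reads, -1.96) and Psmb8 (12346 to 4537, -1.02), encode subunits of the immunoproteasome, and the remaining one, Psmb9, had a ratio of -0.79. Autophagy and lysosome genes were mostly not called: 8 of 28 fell and 1 rose, with a median of -0.48. The gene that rose was Gabarapl1, from 32 to 681 reads, and Ctss and Ctsd, lysosomal cathepsins, fell from 3835 to 669 and from 8279 to 1617.

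Genes of cell death and survival had a median of 0.32, with 10 of the 27 that passed higher and 3 lower. Bcl2l1, which encodes BCL-XL, went from 915 to 3709 reads, 2.44. Bcl2 fell from 11852 to 2852 reads, -1.63. Bcl2a1d and Bcl2a1b rose from 57 to 973 and from 21 to 158 reads, but 89.1% and 88.8% of their 31-mers are shared.

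**Figure D4:**
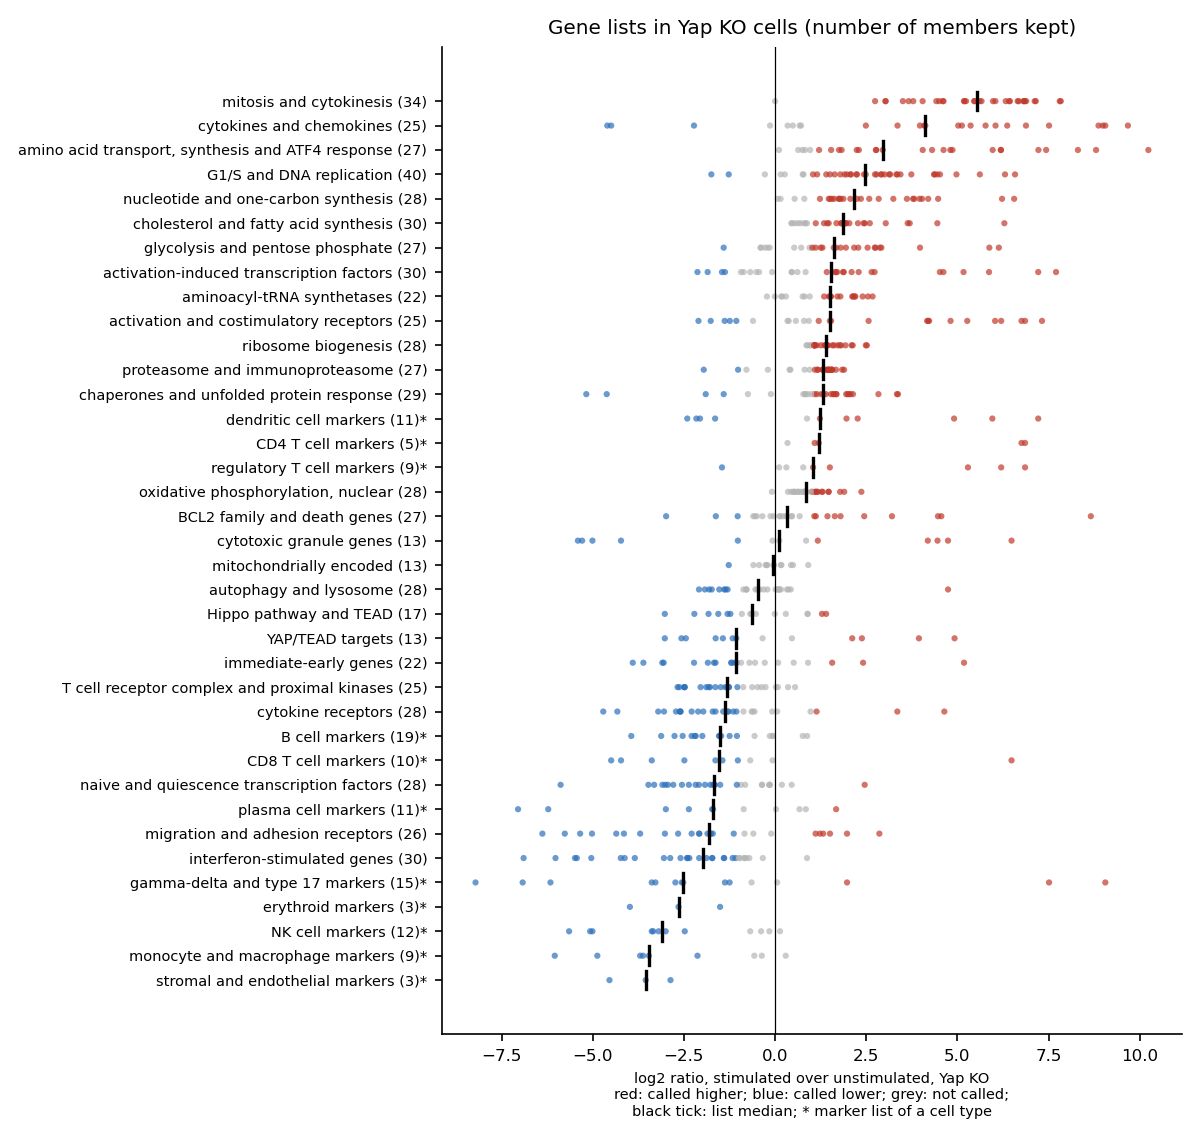
Log2 ratio of stimulated over unstimulated Yap KO cells for the members of each gene list with 3 or more members kept (1 point per gene, number kept in parentheses), ordered by the list median (black tick), with red for genes called higher and blue for genes called lower. Mitosis and cytokinesis stands highest, with a median of 5.54, and the cell type markers (starred) are mostly below 0.

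The Hippo pathway is the one named by the genotype. Of 23 of its genes 17 passed, 2 rose, 6 fell and the median was -0.64. The kinase gene Lats2, itself a YAP target, went from 2570 to 233 reads, -3.03 (-3.23 to -2.84), and in WT cells its ratio was -3.09, with 41.7% of its 31-mers shared with other genes. Rassf5 went from 15176 to 2428 reads and Vgll4, which competes with YAP for TEAD factors, from 2941 to 741. The kinase gene Stk3 rose from 145 to 287 reads and Stk4 was not called (-0.91). Wwtr1, the paralog of Yap1, and Tead4 had 0 reads in both libraries, Tead3 had 1 and 0, Tead1 20 and 5, and Tead2 44 and 8.

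Genes known as YAP and TEAD targets in other tissues were partly silent here. Of 22 listed, 13 passed, 4 rose and 7 fell, with a median of -1.07 in Yap KO and 0.25 in WT cells. The read minimum used the Yap KO libraries only, so the WT medians given here cover genes that those libraries picked. A gene with 0 reads in 1 Yap KO state passed only through the other and had to be called that way, so these counts support nothing further. With no filter beyond 1 read the Yap KO median was -0.43, and the WT median was not computed with that filter. Ccn2 and Ankrd1, the usual reporters of YAP activity, had 0 reads in both Yap KO libraries. Ccn1 went from 0 to 50 reads, at least 22.4-fold higher. Nt5e, a surface nucleotidase, went from 1202 to 149 reads, -2.57, and Asap1 from 2517 to 692. Several members rest on few reads, such as Ptpn14 with 69 and 8 and Arhgef17 with 59 and 13. Some marker lists described below had medians further apart in Yap KO and WT. They were -3.10 and -1.33 for NK cell, 1.196 and 2.71 for CD4 T cell markers. For monocyte markers they were -3.46 and -1.95, and for stromal markers -3.55 and -1.13. In the remaining lists the medians lay closer together than for the YAP targets. With 1 library per group, whether the medians of any list differ between the genotypes was not tested.

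Markers of other cell types moved together with the state of the cells. In bulk RNA, fewer cells of a type and less RNA per cell cannot be told apart. B cell markers fell in 13 of the 19 genes that passed and rose in none (median -1.52), with a sum of 1509 CPM unstimulated and 485 stimulated, and the defining gene Cd79a had 136 reads before and 48 after. Plasma cell markers fell in 6 of 11 and rose in 1, with a median of -1.70 (-0.86 with at least 200 reads) and sums of 145 CPM before and 177 after. Jchain (659 to 2 reads) and Igha (1074 to 9) were the lowest of them. NK cell markers fell in 8 of 12 and rose in none (median -3.10, or -1.84 with at least 200 reads, sum 507 to 262 CPM), and Ncr1, which defines NK cells, had 15 and 1 reads. Monocyte and macrophage markers fell in 6 of 9 (median -3.46, or -2.51 with genes at 0 set at their bound and -2.02 with no filter beyond 1 read), with Lyz2 at 238 and 1 reads, Csf1r at 435 and 396, and 8 of the 16 markers at 0 after stimulation. In these marker lists a gene that passed only through its unstimulated reads had to be lower, so the counts support nothing further. Most of the sum of the monocyte list, 1492 to 83.8 CPM, was Ly6c2 (36747 to 928 reads), which memory CD8 T cells are also known to carry.

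Gamma-delta and type 17 markers fell in 10 of 15 and rose in 3, with a median of -2.52 and sums of 599 and 169 CPM. Trdc, the delta chain constant gene, went from 9112 to 647 reads, -3.38 (-3.50 to -3.27), Sox13 from 676 to 74 and Maf from 162 to 0, at least 40.1-fold lower. The 3 that rose were Il17a, Il17f and Ccr6. Dendritic cell markers rose in 6 of 11 and fell in 4 (median 1.23, sum 778 to 1873 CPM), and those that rose include Ccr7, Cd83 and Batf3. Most of the sum in both libraries was Ccr7, described above with the receptors of T cell migration. With no filter beyond 1 read the median of this list was -0.39, so its direction depends on the read minimum. The defining genes Itgax and Flt3 had 607 and 69 reads before and 143 and 11 after. Regulatory T cell markers rose in 5 of 9 and fell in 1 (median 1.04, or 5.29 without genes with exons opposite another gene). Those that rose include Il2ra and Ctla4, also described above among receptors of activated T cells. The defining Foxp3 had 208 and 167 reads (0.11). Of 12 neutrophil markers none passed the read minimum, and their sum was 2.46 CPM before and 0.311 after. Erythroid, platelet and stromal markers passed in 3 of 10, 2 of 6 and 3 of 14 cases, with sums of 6.85, 129 and 138 CPM before and 1.61, 5.65 and 11.03 after, and the platelet sum was mostly Itgb3 (3323 to 99 reads). The part of these cell types in the falls of other lists was not tested.

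Beside the WT pair, the Yap KO ratios were much alike. In WT cells 23% of the same 15196 genes were called higher and 23.7% lower, against 22.2% and 25.7% in Yap KO, and 46.7% either way. At 4-fold or more, WT had 9.73% higher and 10.5% lower, together 20.2%, against 21.2% in Yap KO. Over the 11797 genes averaging at least 50 reads per library, the 2 sets of log2 ratios had a Pearson r of 0.957 across genes, which are not independent replicates. The ratios differed by less than 2-fold in 94.5% of these genes, and the standard deviation of the difference was 0.52. Of 2142 such genes 4-fold apart in Yap KO, 2117 differed by 2-fold or more the same way in WT and 2 had the opposite sign.

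A ratio at least 4-fold higher in Yap KO than in WT, with a normal 95% interval from the 4 counts that excluded no difference, was found for 35 genes (0.297%), and one at least 4-fold lower for 75 (0.636%), together 0.932%. These counts depend on the read minimum: with a minimum of 10 reads per library they were 122 and 242, and with at least 200 reads 42 were lower. The set of 35 included some cytokine and chemokine genes, and their share of it was not set beside that of all genes. Il17f reached 1699 stimulated reads in Yap KO and 199 in WT, from 2 and 4, a difference of log2 ratios of 3.85 (2.02 to 5.69). Ccl9 reached 2885 and 329, from 6 and 7, 3.52 (2.14 to 4.91), and Il2 1394 and 228, from 0 and 2, 3.71 (1.25 to 6.16). Fosb, an immediate-early gene, had 75 and 26 reads in Yap KO and 251 and 10 in WT, 3.19 (2.15 to 4.24). Hspa1b had 4121 and 123 reads against 9942 and 72 in WT, 2.29 (1.87 to 2.71). Prickle1, a planar polarity gene, had 28 and 114 reads against 93 and 70 in WT, and Mpzl2 and Penk, an adhesion protein and a neuropeptide gene, had 1 and 187 and 0 and 114 reads in Yap KO against 11 and 62 and 22 and 76 in WT.

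Several genes with lower ratios in Yap KO already differed before stimulation. Tbx21, which encodes the T-bet factor of type 1 effector cells, had 2550 and 2591 reads in Yap KO and 394 and 2694 in WT, a difference of -2.48 (-2.65 to -2.31), so the stimulated levels were 134 and 132 CPM and the unstimulated ones 98.2 and 17.2. Slc43a1, an amino acid transporter, had 405 and 324 reads against 41 and 582 in WT, -3.82 (-4.31 to -3.33). Jdp2, a repressor of AP-1, had 60 and 56 against 4 and 121. H2-Ab1, a class II MHC chain of antigen-presenting cells, had 1910 and 243 reads against 619 and 533 in WT, -2.49 (-2.74 to -2.23), and Pdgfrb 459 and 13 against 37 and 14. Aldoc, of glycolysis, had 36 and 45 against 15 and 231, and Ddr1, a collagen receptor, 170 and 579 against 1 and 197. Only 3 of the 11797 genes (0.0254%) were called in opposite directions. St6galnac2, a sialyltransferase, rose from 70 to 140 reads in Yap KO, 1.40 (1.00 to 1.86), and fell from 1876 to 514 in WT, -1.70. Tgm2, a transglutaminase, fell from 179 to 9 reads in Yap KO, -3.65 (-5.04 to -2.93), and rose from 8 to 33 in WT, 1.95. Each of these differences rests on 1 library per group, and variation between cultures or animals was not measured.

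**Figure D5:**
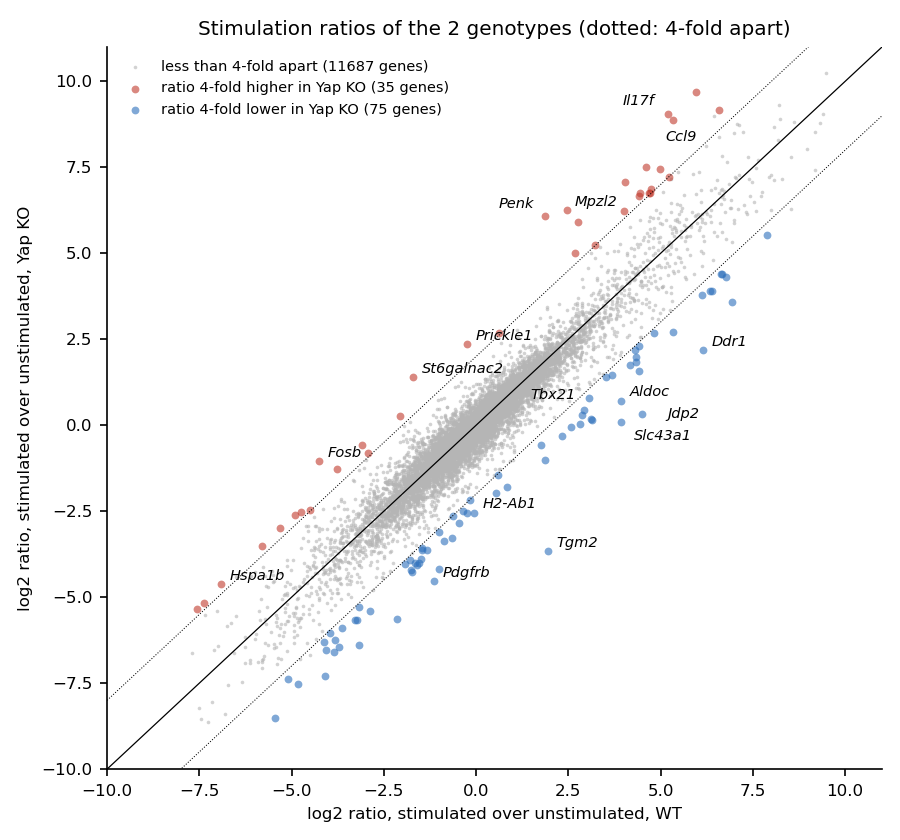
Log2 ratio of stimulated over unstimulated cells in Yap KO (vertical) against WT (horizontal) for 11797 genes averaging at least 50 reads, with a solid line at equal ratios and dotted lines 4-fold apart. Most points lie along the solid line, with 35 genes above (red) and 75 below (blue) the dotted lines.

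Genes 4-fold lower also differed in promoter composition, which the counts did not use, while genes 4-fold higher were close to all genes kept. The median ratio of observed to expected CpG in the 300-base promoters was 0.765 for genes 4-fold higher, 0.559 for genes 4-fold lower and 0.766 for all genes kept. A ratio of at least 0.6 was found in 70.8%, 46.7% and 71.4% of these promoters. Protein-coding genes made up 82.7% of the genes 4-fold higher, 68.5% of those 4-fold lower and 76.9% of all. Promoters matched by symbol for 896 of 1364, 1147 of 1852 and 9949 of 15196 genes, so these shares cover only part of each class. The site of FOS and JUN dimers, TGANTCA, stood in 5.92% of promoters of genes 4-fold higher, 7.32% of those 4-fold lower and 4.97% of all genes kept, and the MYC motif CACGTG in 9.60%, 7.85% and 10.3%. Over all 27025 RefSeq promoters, of genes kept or not, these motifs stood in 7.93% and 7.24%.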

How the data were processed

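Gene counts of 4 bulk RNA-seq libraries were used as deposited by the authors, 1 table of whole read counts per library. The genome build was mm9 per the submitters' processing notes; for aligner, annotation and counting options the sources used here give nothing. The 5 summary entries of each table, such as reads in no gene (48.3% to 52.5%) and ambiguous reads (0.635% to 0.755%), were left out. Libraries were scaled by TMM (edgeR 4.0.16, R 4.3.3) over all 4. Genes with at least 20 reads over both Yap KO libraries were kept. Ratios used a prior count of 2. Their exact 95% intervals (scipy 1.17.1) used no prior count and cover counting error only. Scripts were tested on simulated data. Alternatives changed the scaling (total reads, DESeq2 1.42.0 size factors), prior count and filters. Names follow a rule: the 15 highest and 15 lowest genes by the interval limit nearest 0, the 10 largest CPM gains and losses, the leading members of each list, and the 8 largest differences from WT each way; other genes named were chosen after their values were seen. Members and lists were chosen with earlier results of these data known. Positions and promoters are of GRCm38.p6, not mm9, and were matched by symbol; overlaps and 31-mers come from GENCODE M21. Some genes that the rule names are not reported here.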

Additional observations from a re-analysis of the deposited data

Results flagged for a closer look

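The stimulation ratio of St6galnac2 was positive in Yap KO (1.40, with 70 and 140 reads) and negative in WT (-1.70, with 1876 and 514 reads), both beyond 2-fold. That of Tgm2 was negative in Yap KO (-3.65, with 179 and 9 reads) and positive in WT (1.95, with 8 and 33 reads). Opposite calls in the 2 genotypes singled out both genes, and with 1 library per group the difference was not tested. No group had enough samples to look for one that stands apart.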

How the results depend on the processing

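No paired analysis was possible because each genotype and state has 1 library, all with the number 1. No library could be left out. The 2-fold calls of Yap KO were 3379 higher and 3903 lower with TMM, 3154 and 4150 with total reads, 3485 and 3793 with DESeq2 size factors and 3450 and 3848 with TMM over the 2 Yap KO libraries, and no call reversed among these scalings. Of the list medians over all alternatives 298 stayed within the tolerance of 0.1 log2 units or their own limit, 32 moved and 1 reversed; the cause was not tested. With a prior count of 0.5 the median was 5.11 for cytokines and 3.61 for amino acid genes, and with 5 it was -2.32 for monocyte markers. With no filter beyond 1 read, dendritic cell markers reversed to -0.39 from 1.23, and medians were 0.48 for granule genes, 3.24 for amino acid genes, -0.43 for YAP targets, -2.02 for monocyte and -2.87 for stromal markers. With filterByExpr they were 3.24 for amino acid genes and -2.80 for monocyte markers. With at least 200 reads, 2333 genes were 2-fold lower, 811 were 4-fold higher and 1001 4-fold lower, 42 ratios were 4-fold lower than in WT, and medians were -1.53 for cytokine receptors, -2.07 for migration receptors, -2.19 for B cell, -0.86 for plasma cell, 3.98 for CD4, -1.84 for NK and 2.27 for dendritic cell markers. Without genes with exons opposite another gene, 2579 genes were 2-fold lower, and medians were 4.62 for cytokines, 0.85 for granule, -1.96 for migration, -2.22 for interferon-stimulated, -0.74 for immediate-early, 2.61 for G1/S, 1.74 for nucleotide, 4.05 for amino acid, 1.81 for glycolysis, 1.01 for respiratory chain, 1.59 for ribosome biogenesis and 1.21 for chaperone genes, and 3.98 for CD4, 5.29 for regulatory T cell and -1.88 for gamma-delta markers. With a minimum of 10 reads per library for the difference from WT, 122 ratios were higher and 242 lower.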
